A study of Bos taurus with 18 samples.

Results

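SAA1, AHSG and TTR code for plasma proteins that are best known as products of the liver, and all 3 were read in the rumen papillae of every cow examined. They were taken by name from a deposited expression table of 24616 genes, as 3 genes of that table, to set a positive acute-phase gene (SAA1) beside 2 negative ones (AHSG and TTR). The table lists them under the Ensembl identifiers ENSBTAG00000010433 (SAA1), ENSBTAG00000000522 (AHSG) and ENSBTAG00000010991 (TTR). The symbols came from a supplementary table of the study, which pairs 73 identifiers with names and lists genes that the study had picked on these same samples. The choice of the 3 genes is therefore not independent of their values, and neither the direction nor the size of their differences is independent evidence.

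The acute-phase response is the change in plasma proteins that follows infection or tissue injury, driven largely by cytokines such as interleukin-6 and interleukin-1 acting on hepatocytes. Positive acute-phase proteins increase in plasma, and serum amyloid A, the product of SAA1, is among the most responsive of them. Negative acute-phase proteins decrease, and they include fetuin-A, the product of AHSG, which binds calcium phosphate and limits calcification, and transthyretin, the product of TTR, which carries thyroxine and retinol-binding protein. Serum amyloid A genes are also expressed in epithelia outside the liver. The rumen papillae are covered by a stratified squamous epithelium that takes up volatile fatty acids and forms the barrier to the rumen microbes.

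The papillae came from the ventral sac of 18 lactating, multiparous Holstein cows, slaughtered before the morning feeding after 14 weeks on 1 of 3 diets, with 6 cows per diet. All 3 diets shared 55% concentrate and 15% corn silage on a dry matter basis. The forage that remained was 23% alfalfa hay with 7% Chinese wild rye hay in AH, 30% corn stover in CS and 30% rice straw in RS. No unfed or untreated group was included, so each diet could only be set against the other 2. Expression was given as CPM, the reads of a gene scaled to a common total of reads on annotated genes in every cow, and the whole reads behind it, 16099131 to 32252177 per cow, could be recovered from the values. The median was 20621803 reads in AH, 19610798.5 in CS and 24913740.5 in RS. The samples were bulk tissue, in which fewer cells of a type and less RNA per cell cannot be told apart.

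SAA1 had the largest SD of the 3 genes within diets on the log2 scale. In AH-fed cows it was read at 23.9, 4.35, 2.43, 5.37, 4.96 and 24.1 CPM, in the order of the cow numbers 1 to 6. In CS-fed cows it was read at 3.91, 39.3, 12.8, 39.1, 27.0 and 2.34 CPM. In RS-fed cows it was read at 88.6, 35.4, 23.5, 8.52, 26.8 and 2.34 CPM. The first RS cow was the highest of all 18 and the sixth RS cow the lowest, so that the RS cows alone covered the full range of the 3 diets. The mean was 10.9 ± 10.2 CPM on AH, 20.7 ± 16.8 on CS and 30.9 ± 30.8 on RS (SD, n = 6 each), and the medians were 5.17, 19.9 and 25.2 CPM in the same order. All 3 diets overlapped, and the SD was close to the mean in each.

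AHSG was read at 18.6, 5.96, 6.79, 4.27, 25.3 and 23.6 CPM in the AH cows 1 to 6. The CS cows had 2.43, 5.16, 11.3, 10.5, 12.2 and 6.75 CPM. The RS cows had 2.57, 6.06, 5.52, 5.82, 1.31 and 11.4 CPM. The AH cows 1, 5 and 6 were above every cow of the other 2 diets, whereas the AH cows 2, 3 and 4 lay within the range of CS and RS. The mean was 14.1 ± 9.51 CPM on AH, 8.05 ± 3.88 on CS and 5.45 ± 3.51 on RS (SD, n = 6 each), with medians of 12.7, 8.62 and 5.67 CPM.

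TTR was read at 8.52, 2.52, 6.79, 1.74, 49.0 and 6.10 CPM in the AH cows 1 to 6. The CS cows had 0.441, 3.11, 2.33, 2.33, 7.86 and 8.17 CPM. The RS cows had 4.36, 2.52, 3.69, 5.45, 2.99 and 6.61 CPM. One cow, AH cow 5, stood far above the rest, while the other 5 AH cows lay between 1.74 and 8.52 CPM and overlapped both CS and RS. The mean of 12.4 ± 18.1 CPM in AH (SD, n = 6) rested on that cow, and the median was 6.45 CPM. CS had a mean of 4.04 ± 3.20 CPM with a median of 2.72, and RS a mean of 4.27 ± 1.54 CPM with a median of 4.03 (SD, n = 6 each).

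**Figure D1:**
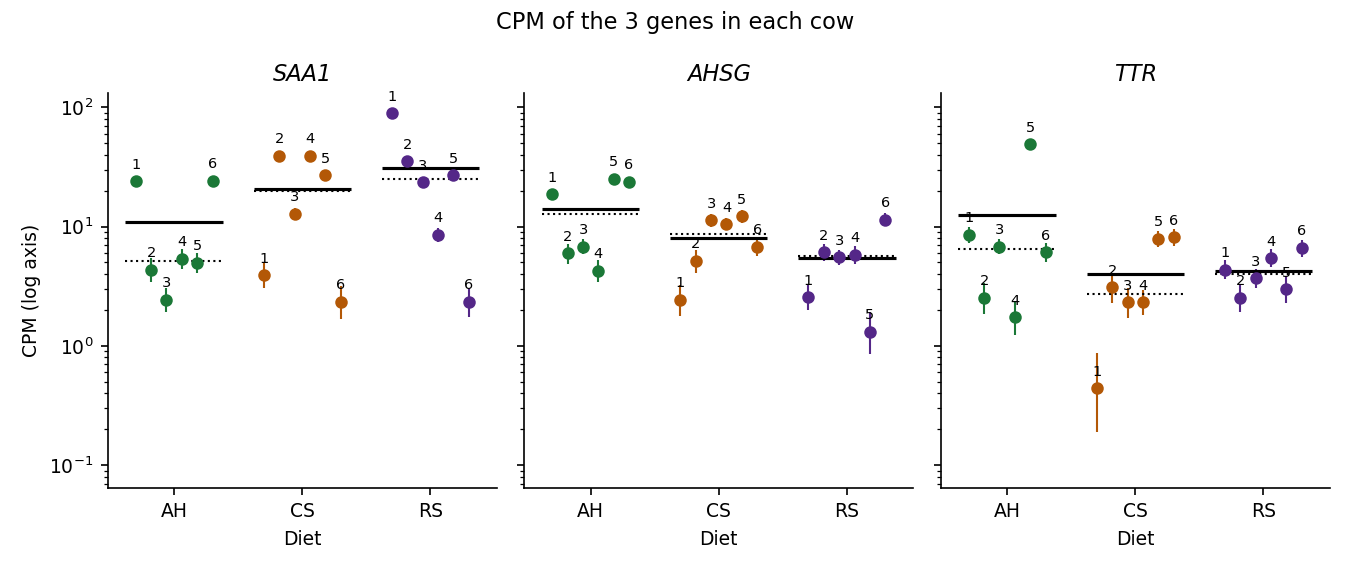
CPM of SAA1, AHSG and TTR in each cow on a log axis, grouped by diet, with the cow number above each point. Bars on points are 95% Poisson intervals of the reads, solid lines the mean and dotted lines the median of 6 cows. The SAA1 values of RS reach from 2.34 to 88.6 CPM, 3 AH cows lead AHSG, and AH cow 5 stands alone at 49.0 CPM for TTR.

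The reads behind these values were 43 to 2417 per cow for SAA1, 25 to 524 for AHSG and 8 to 1017 for TTR. The lowest value of all, TTR in CS cow 1, rested on 8 reads, for which the exact 95% Poisson interval was 0.19 to 0.87 CPM. Such intervals cover counting error only. The differences between cows of a diet exceeded it by far. Within single diets, the highest cow was 9.91-fold to 37.9-fold above the lowest for SAA1, 5.02-fold to 8.71-fold for AHSG and 2.62-fold to 28.1-fold for TTR. Over all 18 cows, across diets, this fold was 37.9 for SAA1, 19.3 for AHSG and 111 for TTR. On the log2(CPM + 0.5) scale the SD within diets was 1.57 for SAA1, 0.95 for AHSG and 1.17 for TTR, against a median of 0.49 over the 13284 genes that passed the filter on low values (3 or more of the 6 cows of a diet above 1 CPM). All 3 genes passed it. Of those genes, 99.4% had a smaller SD than SAA1, 97.8% a smaller one than TTR and 94.1% a smaller one than AHSG.

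The diets were compared in 3 pairs, each diet against each of the others, so that any 2 pairs share a group. A gene counted as differentially expressed (DE) where its limma p, adjusted by the Benjamini-Hochberg method, was under 0.05 and its mean CPM differed over 2-fold. None of the 3 genes was DE in any pair. Of all genes tested, AH vs. CS called 0.00753% and AH vs. RS also 0.00753%, whereas RS vs. CS called 0%. Over the 9 comparisons of the 3 genes, limma gave 1 unadjusted p under 0.05, while edgeR and DESeq2 on the recovered reads gave 3 each, and none of these tools gave an adjusted p under 0.05. None of the 9 passed 0.05 in the two-sided exact permutation test, which can reach 0.0022.

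For SAA1 the limma difference in log2(CPM + 0.5) was -0.79 ± 0.80 (SE) in AH vs. CS, with a 95% interval of -2.44 to 0.87 (adjusted p = 1.00). In AH vs. RS it was -1.27 ± 0.80, with an interval of -2.93 to 0.39 (adjusted p = 1.00). RS vs. CS gave 0.48 with an interval of -1.18 to 2.14 (adjusted p = 1.00). The order of the mean levels was thus AH, CS, RS from the lowest to the highest, and no neighbours in that order differed beyond their spread. The ratio of mean CPM was 1.91-fold between CS and AH, 2.84-fold between RS and AH and 1.49-fold between RS and CS. The exact permutation tests gave p = 0.390, 0.184 and 0.626 for the 3 pairs. An AH cow was above a CS cow in 13 of 36 pairings and above an RS cow in 10 of 36, and an RS cow was above a CS cow in 18 of 36. Without RS cow 1 the difference of AH vs. RS was -0.83, and without RS cow 6 it was -1.82. RS vs. CS lay at 0.03 without CS cow 6 and at 1.04 without RS cow 6.

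AHSG had the reverse order of means, with AH the highest and RS the lowest, and it gave the only limma p under 0.05 among the 9. In AH vs. RS the difference was 1.22 ± 0.50 (SE) with a 95% interval of 0.18 to 2.27, a limma p of 0.0244 and an adjusted p of 1.00. The ratio of mean CPM was 2.58-fold. The exact permutation test of the same cows gave p = 0.0671, and an AH cow was above an RS cow in 29 of 36 pairings. In AH vs. CS the difference was 0.63 with an interval of -0.42 to 1.67, and in RS vs. CS it was -0.60 with an interval of -1.64 to 0.45 (adjusted p = 1.00 in both, limma). Neighbours in the order AH, CS, RS therefore did not differ beyond their spread (exact permutation p = 0.279 and 0.292). Leaving out any 1 cow kept the AH vs. RS difference between 0.93 and 1.48.

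TTR differed by 1.03 ± 0.61 (SE) on the log2(CPM + 0.5) scale in AH vs. CS, with a 95% interval of -0.23 to 2.30 (limma, adjusted p = 1.00). AH vs. RS gave 0.67 with an interval of -0.60 to 1.93, and RS vs. CS gave 0.37 with an interval of -0.90 to 1.63. The exact permutation p was 0.266, 0.390 and 0.517 for the 3 pairs. By mean CPM, AH was 3.08-fold above CS and 2.92-fold above RS. Both ratios use the AH mean, which rested on AH cow 5, and they were not computed again without that cow. On the other measure, the limma differences of 1.03 and 0.67 fell to 0.48 and 0.11 without AH cow 5. On the recovered reads of all 18 cows, TTR differed by 1.64 with edgeR and 1.65 with DESeq2 in AH vs. CS, and by 1.52 and 1.53 in AH vs. RS. Adjusted, the p of each of these 4 was 1.00, while unadjusted they lay between 0.0078 and 0.0330 in edgeR and DESeq2. RS and CS means were 1.06-fold apart.

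**Figure D2:**
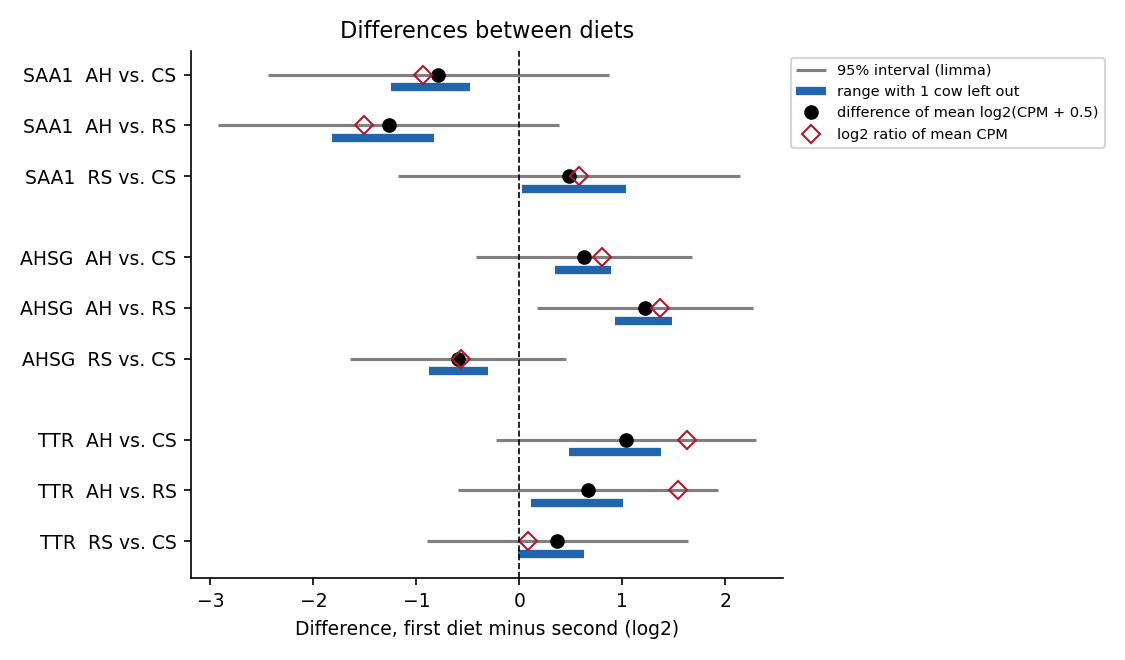
Differences between diets for the 3 genes on the log2 scale, first diet minus second. Black points are limma differences in log2(CPM + 0.5) with their 95% intervals (grey), blue bars the range when any 1 cow is left out, and red diamonds the log2 ratio of mean CPM. Of the 9 intervals, that of AHSG in AH vs. RS (0.18 to 2.27) leaves out 0.

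Read against all genes tested, the counts were as follows. In AH vs. CS, 0 of the 3 genes had an unadjusted limma p under 0.05, where 1.87% of all genes tested did (1.23% with the higher level in AH), and 1.9% had an exact permutation p under 0.05. The pair AH vs. RS had 1 of the 3 genes (AHSG) with such a limma p, where 1.79% of all genes did (0.956% with the higher level in AH) and 2.26% passed by the exact permutation test. For RS vs. CS it was 0 of 3, where 1.29% of all genes did (1% with the higher level in RS) and 1.81% passed by the exact permutation test. A ratio of mean CPM over 2-fold was reached by 1 of the 3 genes when AH was set against CS (TTR), by 3 when it was set against RS, and by 0 between RS and CS. Such a ratio was reached by 1.67%, 1.6% and 1.45% of all genes tested. Nothing is read from this count, since the study picked the genes of its table on these same cows with a ratio of mean CPM over 2-fold as a criterion. The 2 diets compared overlapped for each of the 3 genes in every pair, while 0.12%, 0.143% and 0.0602% of all genes tested had no overlap. The median difference of the 3 genes was 0.63, 0.67 and 0.37 in the 3 pairs, beside 0.04, 0.03 and 0.01 over all genes tested. In both AH pairs it pools SAA1, which was lower in AH, with AHSG and TTR, which were higher. Nothing is read from these medians either.

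The balance of the positive against a negative acute-phase gene within a cow was described as log2(CPM + 0.5) of SAA1 minus log2(CPM + 0.5) of AHSG. The AH cows had a mean of -0.55 ± 1.03, the CS cows one of 0.86 ± 1.44 and the RS cows one of 1.94 ± 2.48 (SD, n = 6 each). The value was above 0 in 3 of 6 AH cows, in 5 of 6 CS cows and in 5 of 6 RS cows. It ran from -2.24 in AH cow 5, which had low SAA1 and the highest AHSG, to 4.86 in RS cow 1, which had the highest SAA1 and little AHSG. The range within RS was wider than the distance between any of the diet means, and RS cow 6, at -2.07, was lower than every AH cow except cow 5. No test was made, as the pair of genes was put together with their values known.

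Over the 18 cows, no relation of SAA1 to either negative acute-phase gene passed the test. Altogether 3 relations between the 3 genes were computed on log2(CPM + 0.5), with two-sided permutation tests and Benjamini-Hochberg adjustment over the 3. SAA1 and AHSG gave Pearson's r = -0.10 and Spearman's rho = -0.15 (permutation p = 0.698 and 0.559, adjusted p = 0.698 and 0.559). As deviations from the diet means, the same pair gave r = 0.09 (permutation p = 0.726), and by diet r was 0.63 (AH), 0.49 (CS) and -0.69 (RS), with exact permutation p = 0.251, 0.332 and 0.117. SAA1 and TTR gave r = -0.14 and rho = -0.18 (permutation p = 0.604 and 0.460, adjusted p = 0.698 and 0.559), and r = -0.05 for deviations from the diet means. By diet, r of this pair was 0.04 (AH), 0.10 (CS) and -0.69 (RS), with exact permutation p = 0.969, 0.824 and 0.126. Without the 2 cows farthest from the median of SAA1, r was -0.06 for AHSG and -0.04 for TTR. Among RS cows alone both pairs had a negative r of -0.69, and neither passed the test.

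AHSG and TTR, the 2 negative acute-phase genes, rose and fell together over the cows. They gave r = 0.64 and rho = 0.61 (permutation p = 0.0041 and 0.0085, adjusted p = 0.0122 and 0.0254, 18 cows). Deviations from the diet means gave nearly the same, r = 0.64 and rho = 0.59 (permutation p = 0.0029 and 0.0117, adjusted p = 0.0088 and 0.0351). Without the 2 cows farthest from the median of AHSG, r was 0.57 (permutation p = 0.0204). Within single diets r was 0.77 (AH), 0.63 (CS) and 0.52 (RS), with exact permutation p = 0.0361, 0.175 and 0.299. By rank, rho was 0.83, 0.31 and 0.37, with exact permutation p = 0.0583, 0.564 and 0.497. The sign was the same in all 3 diets, and the p under 0.05 in AH held for r but not for rho. AH cow 5 was the highest of 18 for both genes. CS cow 1 was the lowest for TTR and the second lowest for AHSG. Such closeness was not particular to this pair. Of the other 13283 genes tested, 73 (0.55%) had a rho of 0.8 or above with AHSG over the 18 cows. The bins of 0.05 from 0.6 to 0.8 held a further 357, 208, 133 and 86 genes, with TTR in the first of these bins. TPRG1 (rho = 0.88), VNN2 (0.82) and ARG1 (0.78) were also closer to AHSG than TTR was.

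**Figure D3:**
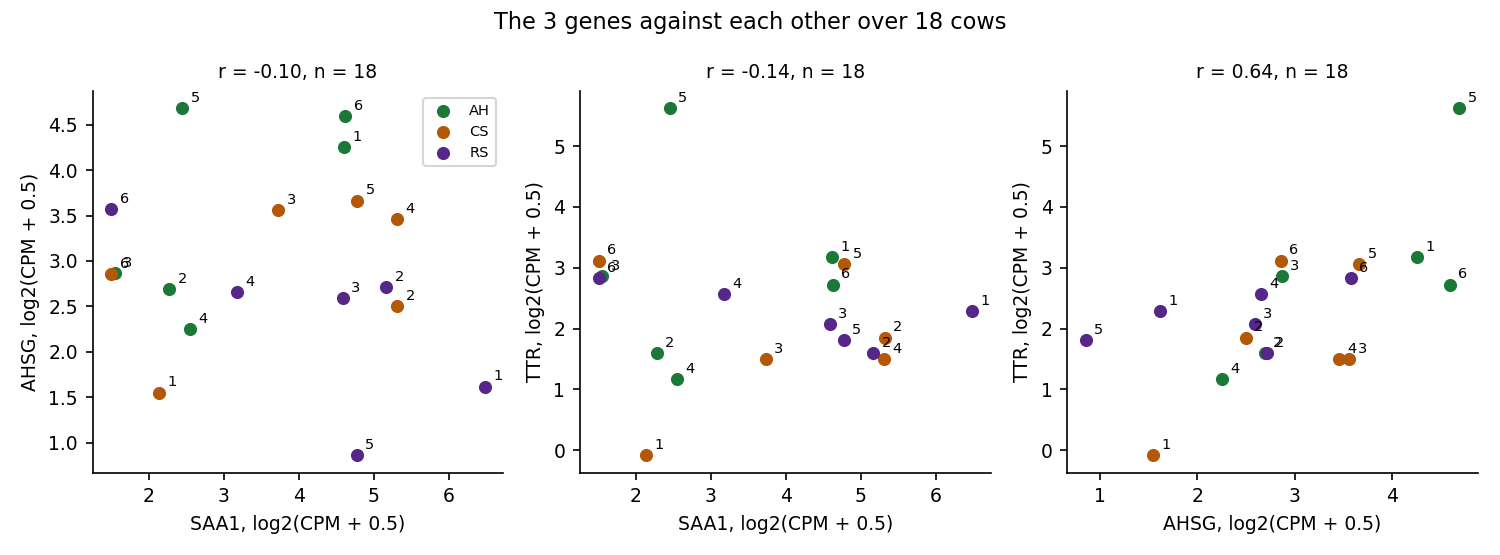
Each pair of the 3 genes over 18 cows, both axes in log2(CPM + 0.5), coloured by diet and numbered by cow. AHSG and TTR lie along a rising band (r = 0.64), from CS cow 1 at the lower left to AH cow 5 at the upper right, whereas SAA1 shows no such band with either (r = -0.10 and -0.14).

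To place the 3 genes among the rest, Spearman's rho over the 18 cows was computed with each of the other 13283 genes tested. These are descriptions of likeness over 1 set of libraries, which share depth and tissue composition. SAA1 had no gene at a rho of 0.8 or above, TTR had 2 and AHSG had 73, or 0.55% of the genes. The median gene of the table had 57 such companions and 6.90% of genes had none. AHSG thus lay near the middle, with 53.8% of genes having fewer companions. TTR lay low, with 11.1% having fewer, and SAA1 was among those with none. As deviations from the diet means, 121 genes were at 0.8 or above for AHSG, 8 for TTR and 0 for SAA1. The gene most like AHSG was ENSBTAG00000010719 (rho = 0.94, and 0.86 within diets), and the gene least like SAA1 was ENSBTAG00000006777 (rho = -0.91, and -0.79 within diets). For SAA1 the highest rho was 0.72 and for TTR it was 0.81. The files used here pair neither of these identifiers, nor any of the 5 genes most like each of the 3, with a symbol.

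**Figure D4:**
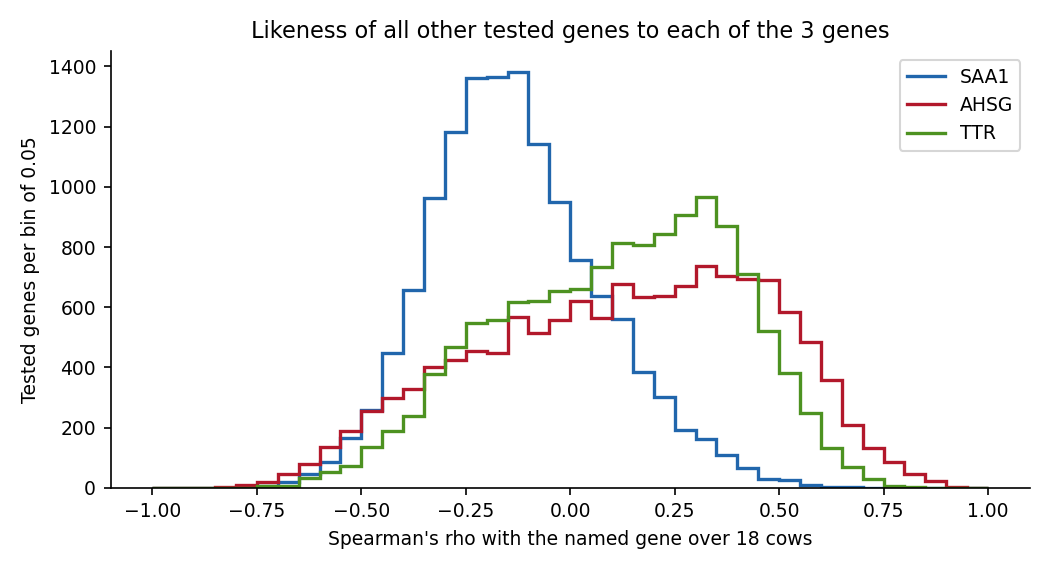
Number of tested genes in each bin of 0.05 of Spearman's rho with SAA1, AHSG or TTR over 18 cows. The SAA1 curve is centred below 0 (median rho -0.15) and ends at 0.72, whereas the AHSG and TTR curves are centred above 0 (medians 0.16 and 0.14) and the AHSG curve reaches 0.94.

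Among the 72 other genes with a symbol, all from the list the study picked on these samples, the genes most like AHSG were TPRG1 (rho = 0.88), VNN2, of the vanin pantetheinase family (0.82), ARG1, the arginase of the urea cycle (0.78), IGFBP3, a carrier of insulin-like growth factors (0.75), and NOV, a matricellular CCN protein (0.75). As deviations from the diet means these were 0.91, 0.80, 0.73, 0.69 and 0.76. Of the 72, 14 were at 0.5 or above and 1 at -0.5 or below. The one was S100A8, a calgranulin of neutrophils and stressed squamous epithelium (rho = -0.66, and -0.49 within diets). The median rho with AHSG was 0.11 over the 72 and 0.16 over all 13283 genes, and nothing is read from the counts. The 3 AH cows with the highest AHSG were also the 3 highest of all 18 for TPRG1, at 25.9, 24.1 and 29.7 CPM in AH cows 1, 5 and 6, where the other 3 AH cows had 2.84, 6.76 and 4.50. The same 3 cows led ARG1, at 173, 136 and 359 CPM, although CS cow 5 was next to the lowest of them at 135 CPM. They also led PADI1, an enzyme that citrullinates epidermal proteins, at 16.2, 41.8 and 53.9 CPM, and SLURP1, a secreted protein of squamous epithelia, at 68.0, 51.1 and 153 CPM. Other genes like AHSG did not keep to these 3 cows. For VNN2, CS cow 5 at 21.4 CPM was above AH cow 5 at 14.4 CPM. For IGFBP3, CS cows 3 and 5 at 149 and 153 CPM were above AH cow 1 at 134 CPM, and for CYR61, a CCN protein like NOV (rho = 0.69), CS cow 5 at 96.6 CPM was above AH cow 6 at 53.9 CPM. At the other end, TPRG1 was lowest in CS cow 1 (2 reads), RS cow 5 and RS cow 1, the 3 cows that were also lowest for AHSG. The AH cows 1, 5 and 6 held 17731570, 20751503 and 20492103 reads, within the range of the remaining AH cows (18638959 to 29594787) except for AH cow 1, which was just below it, and the part of depth was not tested.

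**Figure D5:**
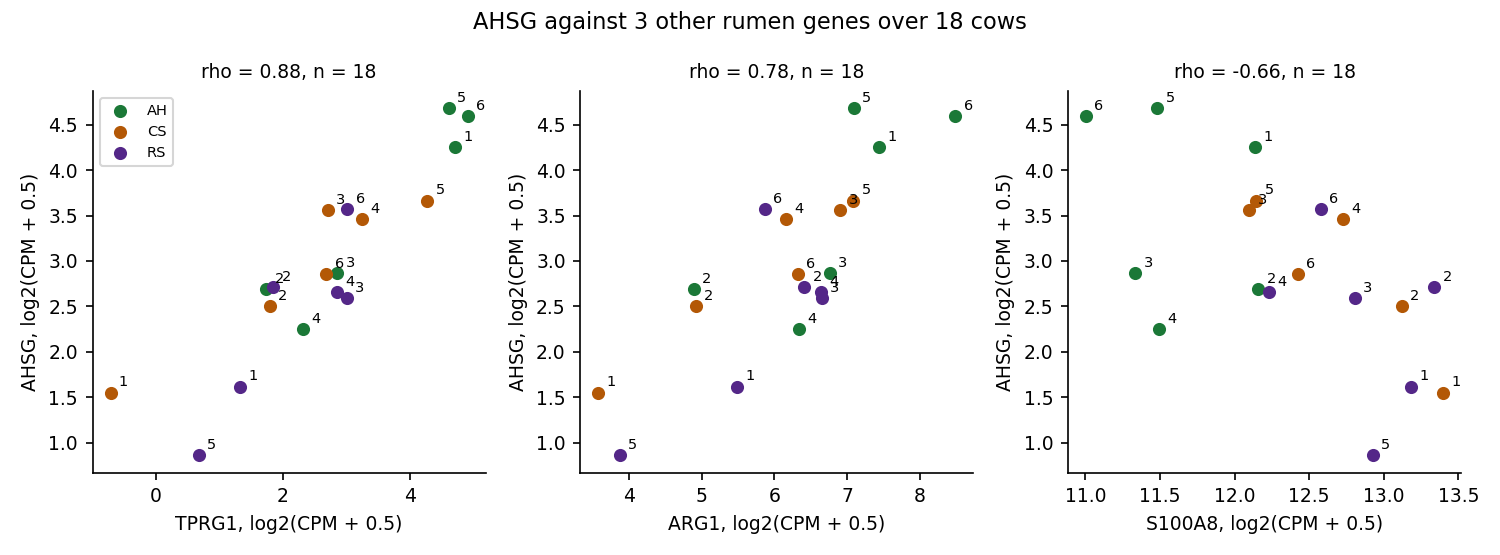
AHSG against TPRG1, ARG1 and S100A8 over 18 cows, both axes in log2(CPM + 0.5), coloured by diet and numbered by cow. AH cows 1, 5 and 6 sit at the top right for TPRG1 (rho = 0.88) and ARG1 (rho = 0.78), and the points descend for S100A8 (rho = -0.66).

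The named genes most like TTR were VNN2 (rho = 0.72), TPRG1 (0.62), AHSG itself (0.61), LPO, the lactoperoxidase of epithelial secretions (0.57), and CRISP3, a cysteine-rich secretory protein (0.56). Of the 72, 9 were at 0.5 or above and 0 at -0.5 or below, and the lowest was again S100A8 (rho = -0.42). The median rho with TTR was 0.18 over the 72 and 0.14 over all 13283 genes tested, and nothing is read from these counts. VNN2 and TPRG1 were thus near the top for both negative acute-phase genes. In the RefSeq order of genes on assembly ARS-UCD2.0, TTR lies beside the desmogleins, which join cells of stratified epithelia, with DSG2, DSG3 and DSG4 between it and DSG1. TTR and DSG1 did not run in parallel (rho = -0.01, and -0.23 within diets). The 2 cows highest for DSG1, AH cow 6 at 101 CPM and AH cow 2 at 68.5 CPM, had 6.10 and 2.52 CPM of TTR.

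The nearest named genes of SAA1 were other ones, HSPH1 (rho = 0.53), BAG3 (0.47), TAP (0.47), HSPA1A (0.46) and PI3 (0.45), and only HSPH1 was at 0.5 or above among the 72. The median rho with SAA1 was -0.10 over the 72 and -0.15 over all 13283 genes tested. HSPH1, BAG3 and HSPA1A belong to the heat shock chaperone system. TAP is the tracheal antimicrobial peptide, a bovine defensin, and PI3 is the protease inhibitor elafin. As deviations from the diet means, rho was 0.47 for HSPH1, 0.54 for HSPA1A and 0.08 for TAP. CS cow 2 and RS cow 5, with 2224 and 1798 CPM of HSPH1, had 39.3 and 26.8 CPM of SAA1, but RS cow 1, the highest for SAA1, had 148 CPM of HSPH1. The lowest were ENPEP and CRISPLD2, both at -0.46. The value of SAA1 itself is uncertain, because serum amyloid A genes are close copies of each other and reads with several mapping positions had been removed. In RefSeq on ARS-UCD2.0, SAA1 is a synonym of SAA2, and SAA3 and SAA4 lie beside it. AHSG lies there beside KNG1, HRG and FETUB, which also code for plasma proteins of the cystatin family.

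Of the other genes of the acute-phase response, 3 of 26 further positive acute-phase genes could be matched by symbol, and all 3 belong to complement. These were C3, the central complement component, C2, the protease of the classical C3 convertase, and CFB, that of the alternative one. None passed at an adjusted p under 0.05 in limma in any pair. At an unadjusted limma p under 0.05, C2 and CFB (2 of 3) were lower in AH than in CS, the same 2 were lower in AH than in RS, and C2 (1 of 3) was higher in RS than in CS. Over all genes tested such a p was reached by 1.87%, 1.79% and 1.29%, but these 3 genes could be matched only because the study had picked them on these same cows, so nothing is read from their count. C2 was at 10.3 ± 8.05 CPM on AH, 14.9 ± 4.45 on CS and 29.2 ± 11.7 on RS (SD, n = 6 each), the same order of means as SAA1. Its difference in AH vs. RS was -1.69 (limma p = 0.0002, adjusted p = 0.338), with an exact permutation p of 0.0087. CFB was at 77.1 ± 55.8, 118 ± 46.0 and 149.7 ± 36.3 CPM, and its difference in AH vs. RS was -1.15 (limma, adjusted p = 1.00, exact permutation p = 0.0195). C3, at 56.4 ± 85.1, 35.7 ± 9.05 and 79.5 ± 54.8 CPM, gave -1.11 in AH vs. RS (limma, adjusted p = 1.00, exact permutation p = 0.156). Cow by cow, SAA1 was not like them, with rho = -0.04 for C2, -0.02 for C3 and 0.25 for CFB over 18 cows.

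MGP, matrix Gla protein, which like fetuin-A limits calcification, had 307 ± 247 CPM in AH-fed, 173 ± 114 in CS-fed and 341 ± 289 in RS-fed cows and passed in no pair. It had rho = 0.20 with AHSG and 0.41 with TTR. No other gene of the plasma protein lists could be matched, so ALB, the transferrin and apolipoprotein genes and the remaining acute-phase genes are not analysed here.

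The tissue was checked on markers as far as symbols allowed. Of 11 markers of squamous epithelium, DSG1 could be matched, and it was read in all 18 cows at 3.67 to 101 CPM. None of the 12 hepatocyte markers and none of the blood or neutrophil markers could be matched, so whether liver or blood RNA moved with the 3 genes was not tested. AIF1, the 1 of 6 macrophage markers matched, was at 16.4 ± 7.79 CPM on AH, 35.1 ± 7.55 on CS and 34.2 ± 5.40 on RS (SD, n = 6 each), with limma differences of -1.19 and -1.17 against CS and RS (limma p = 0.0002 and 0.0003, adjusted p = 0.580 and 0.399, exact permutation p = 0.0065 and 0.0043). It had rho = 0.23 with SAA1, -0.41 with AHSG and -0.27 with TTR. FABP4, the 1 of 5 adipocyte markers matched, had 471 ± 280 CPM in AH-fed, 459 ± 241 in CS-fed and 231 ± 140 in RS-fed cows, with rho = -0.24, 0.22 and 0.02 with SAA1, AHSG and TTR. Its limma difference was 1.03 between AH and RS and -1.04 between RS and CS (limma p = 0.0455 and 0.0431, adjusted p = 1.00 in both, exact permutation p = 0.0996 and 0.0844). Like DSG1, both AIF1 and FABP4 could be matched only because the study had picked them on these same cows. Their p are therefore not independent evidence of a difference in cell types, and nothing is read from them. The part of macrophages or adipocytes in the levels of the 3 genes was not tested.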

How the data were processed

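RNA of rumen papillae from 18 cows was sequenced by the authors, who aligned reads to UMD3.1 with TopHat2, dropped reads with several mapping positions and counted the rest on Ensembl genes with HTSeq (versions not given in the sources used here). They deposited CPM, relative to the reads on annotated genes of each cow. Per the labels, extraction involved rectal tissue and another kit than in the study's methods, a difference that was not resolved. No batch is named.

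Within a tolerance of 0.02, 100% of the CPM were whole multiples of 1 read, which gave the recovered reads. Per the labels each sample is 1 cow and was 1 replicate. As a check for a library deposited more than once, cows of a diet were compared, and none agreed within sampling noise (chi-square per degree of freedom 40.6 to 316 over 45 pairs). With 3 reads as the floor, a count of 0 allows up to 0.186 CPM in the shallowest cow.

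The 13284 genes that 3 or more of the 6 cows of a diet held above 1 CPM were fitted with limma 3.58.1 (intensity trend, R 4.3.3) on log2(CPM + 0.5) over all 18 cows, with Benjamini-Hochberg adjustment over all of them. This scale understates the change of low genes. Exact permutation tests were two-sided, and correlations over 18 cows used 100000 resamples. edgeR 4.0.16 (quasi-likelihood) and DESeq2 1.42.0 on the recovered reads were alternatives, besides other pseudocounts, filters, scalings and variance models, a replicate block and leaving out each cow. The script was tested on simulated data. The 3 genes and all lists were chosen with earlier results of these data known. Named besides the 3 genes are the genes most and least like each of them and matched list members that are among the 3 most abundant of their list or have a limma p under 0.05. Likeness among the genes with a symbol was added after seeing the data. From it, CYR61, PADI1 and SLURP1 were picked with their values known, as was DSG1 for its place beside TTR. Of 119 symbols in the pathway lists 4 could be matched, and 3 of 77 in the 13 marker lists. Permutation tests ran in scipy 1.17.1, plots were drawn in matplotlib 3.10.9, and tables were made in pandas 2.3.3 under Python 3.11.15.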

Additional observations from a re-analysis of the deposited data

Results flagged for a closer look

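In 33 groups of 6 cows, the gap of the highest or the lowest cow to its nearest neighbour was divided by the range of the group. This ratio was set against Dixon's 95% critical value for 6 samples, which about 1 of 20 groups of independent, normally distributed values pass. Most values here were CPM without a log and the groups share cows, so that rate need not hold. The critical value was passed in 3 cases. TTR in AH cow 5 was at 49.0 CPM (ratio 0.857), with the next AH cow at 8.52. The same cow had the highest AHSG of all 18, at 25.3 CPM, but an SAA1 of 4.96 CPM. C3 in AH cow 3 was at 229 CPM (ratio 0.882), and CFB in the same cow was at 187 CPM (ratio 0.766). That cow had 2.43 CPM of SAA1, the lowest of AH, beside the highest C3, CFB and C2 of its diet. SAA1 in RS cow 1, at 88.6 CPM, stayed just under the critical value (ratio 0.617). Without AH cow 5 and RS cow 1 together, a choice made after seeing the data, the differences of AH vs. RS were -0.72 for SAA1, 0.85 for AHSG and 0.13 for TTR.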

How the results depend on the processing

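Over 30 settings for each of the 9 differences, no adjusted p was under 0.05 (lowest 0.764, AHSG in AH vs. RS with DESeq2). One difference changed sign, TTR in RS vs. CS, at -0.015 without CS cow 1 and 0.63 at most. Leaving out 1 cow gave -1.24 to -0.48, 0.35 to 0.89 and 0.48 to 1.37 for SAA1, AHSG and TTR in AH vs. CS, and -1.82 to -0.83, 0.93 to 1.48 and 0.11 to 1.01 in AH vs. RS. Between RS and CS it gave 0.03 to 1.04 for SAA1 and -0.87 to -0.30 for AHSG. With limma, as with edgeR, DE genes numbered 1 between AH and CS, 1 between AH and RS and 0 between RS and CS. Leaving out 1 cow gave 1 to 2, 1 to 5 and 0 to 6 for these pairs, the highest of the last 2 without RS cow 6. DESeq2 called 5 and 7 in the AH pairs and 0 in RS vs. CS. With only the 12 cows compared, AH vs. CS had 0 (214 at an unadjusted p under 0.05), with no filter RS vs. CS had 1, and without AH cow 5 and RS cow 1 AH vs. CS had 2. Whether same-numbered cows deviated together was mixed (correlations -0.48 to 0.71, median 0.20, 12 of 18 over 0.1). Of the 18 cows, 5 correlated best with their own number. For measurements other than the sequencing, the paper names a randomized complete block design, but not which cows formed a block. The numbers were therefore not taken to pair cows. A replicate block gave 2 DE genes in AH vs. RS in place of 1. Against r = -0.10 over all cows, SAA1 and AHSG had r = 0.088 as deviations from the diet means, 0.63 in AH alone and 0.49 in CS alone, and SAA1 and TTR, at r = -0.14, had 0.041 in AH and 0.10 in CS. AHSG and TTR had r = 0.63 in CS and 0.52 in RS without passing 0.05 in the exact permutation test. The causes were not tested. With 6 cows per diet and this spread, limma intervals of the 3 genes were wider than 2 log2 units. The parts of counting error and of differences between cows in that width were not tested.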
